A study of Sus scrofa with 20 samples.

Results

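The 71 genes described here are the collagens, lysyl oxidases, matrix metalloproteinases and their tissue inhibitors, ADAM proteases, integrins, laminins and serpins measured on a porcine array. They were chosen by gene symbol from the platform's probe table, and each gene was represented by its single-symbol probe set of highest mean signal over 20 arrays. The families hold 15 collagens, 3 lysyl oxidases, 8 metalloproteinases, 4 TIMPs, 10 ADAM and ADAMTS genes, 12 integrin subunits, 3 laminin chains and 15 serpins, out of 6765 genes with 1 symbol. A further gene, ITGB1BP2, was picked up by its symbol but encodes melusin, a muscle protein that binds the tail of the β1 integrin and is not an integrin.

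Expression was measured in the hearts of 20 female pigs, 5 in each of 4 groups, with 1 array per sample and a deposited log2 signal for each probe set. Control pigs had a sham operation. SWOP pigs, named for the second window of preconditioning, had 2 coronary artery occlusions of 10 min, and the labels place 24 h of reperfusion before sampling. RCO pigs had repeated coronary occlusion, with the same stimulus given 6 times, 12 h apart, and RCS pigs had repeated coronary stenosis, with 90 min of low-flow ischemia given 6 times, 12 h apart. For RCO and RCS, the labels used here state neither the heart region nor how long after the last episode samples were taken. The series title asks whether chronic ischemia and the classical second window precondition the heart by different mechanisms.

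The extracellular matrix of the heart is laid down mainly by fibroblasts as fibrillar and network-forming collagens. Lysyl oxidases cross-link these collagens, and metalloproteinases cut them unless TIMPs block the enzyme. Laminins form the basement membrane around each cardiomyocyte and vessel, integrins tie cells to both kinds of matrix, ADAM proteases release proteins from the cell surface, and most serpins inhibit serine proteases of clotting, plasmin formation and inflammation.

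RCO replicates 2 and 3 stood apart: of the 22 members that were higher in RCS than in control, 19 (86.4%) had both of these arrays above the other RCO arrays, beside 49.9% of all 4632 probe sets and 50.9% of all 1949 genes with 1 symbol that were higher in RCS. The signal of the hybridization spike-ins was highest on RCO replicate 1 (11.33, log2) and SWOP replicate 1 (11.15), and on RCO replicate 1 several matrix genes read below every control. On the RCS arrays the spike-in signal was 10.45 to 10.68, below every array of the other groups, with control at 10.81 to 10.92. The part of this lower signal in the RCS differences was not tested. The difference between the 3' and 5' actin probe sets, an index of RNA length, was 1.24 to 1.96 (log2) in control, 0.78 to 1.69 in RCO with its lowest values on replicates 2 and 3, and 0.51 to 0.73 in RCS. For GAPDH the same difference ran from -0.16 to -0.06 in control, -0.23 to 0.08 in RCO and -0.06 to 0.19 in RCS. It was 0.08 on RCO replicate 2 and -0.07 on replicate 3. From control to RCS the actin index fell while the GAPDH index rose. The part of either in the results was not tested. The array medians lay between 6.75 and 6.82 on every array. The interquartile range (log2) was 3.04 to 3.16 in control and 3.05 to 3.32 in RCO. It was wider, without overlap with control, in SWOP (3.26 to 3.3) and RCS (3.27 to 3.44). After quantile normalization, which gives all arrays 1 distribution, 32 members were called in RCS and 2 in SWOP against control. The part of this spread in the calls by signal level given below was not tested.

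RCS hearts differed most from control among these genes. With limma, 22 of the 71 members were higher and 14 lower in RCS than in control at an adjusted p below 0.05, 31.0% and 19.7% of them. Of all 23999 probe sets tested 19.3% were higher, 28.2% lower and 47.5% called in either direction. Over the 6765 genes with 1 symbol, each represented in the same way as a member, the shares were 28.8%, 25.7% and 54.5%. Called members made up 50.7%, near that background, so the count is no result about these genes. By size, 14 members (19.7%) were called and at least 2-fold higher in RCS, beside 6.76% of all genes with 1 symbol, and 0 were called and at least 2-fold lower, beside 1.46%. Of the 14 lower members 2 fell by at least 1.5-fold, 2.82% of all members, beside 6.44% of all genes with 1 symbol.

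In RCO hearts 9 members (12.7%) were higher and 3 lower than in control, beside 11.3% and 4.26% of genes with 1 symbol (15.6% in either direction), a like share. Of all probe sets 5.9% were higher, 4.81% lower and 10.7% either. In SWOP hearts 0 were higher and 4 (5.63%) were lower, beside 4.66% and 3.5% of genes with 1 symbol (8.16% in either direction) and 3.01% and 4.14% of all probe sets (7.15%). With limma, 18 members had an unadjusted p below 0.05 in SWOP. The RCO and SWOP counts moved with the arrays used: fits of only the pair of groups compared called 3 members in RCO (COL8A1, SERPINB2 and SERPINE2) and 16 in SWOP, and without RCO replicates 2 and 3 the RCO count was 5 (COL8A1, LOXL1, SERPINB2, ITGB1BP2 and ITGB5). The median difference over the 71 members was -0.04 (log2) in SWOP, 0.03 in RCO and -0.002 in RCS. Over all genes with 1 symbol it was 0.04, 0.01 and -0.004, and over all probe sets -0.01, -0.03 and -0.08. Of the 9 members higher in RCO, 8 were also higher in RCS, but both comparisons use the same 5 control arrays. The like overlap over all genes with 1 symbol was not counted, so it is not read as particular to these genes. In 32 of the 71 members none of the differences from control passed. The like share of all genes with 1 symbol was not counted, so this number is no result about these genes.

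**Figure D1:**
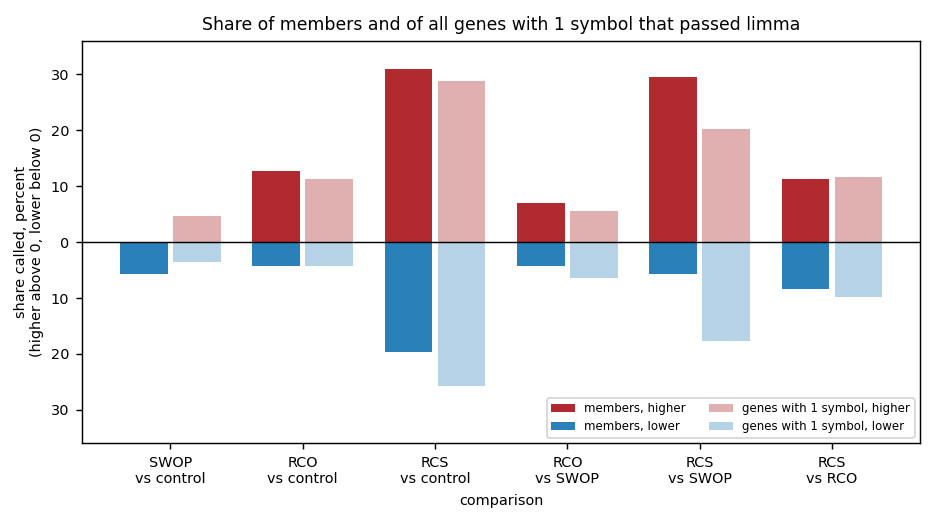
Bars give the percent of the 71 members (dark) and of all 6765 genes with 1 symbol (pale) that passed limma at an adjusted p below 0.05, with higher calls drawn above 0 and lower calls below it, in each of the 6 comparisons. In RCS against control 31.0% of members were higher beside 28.8% of these genes, and 19.7% were lower beside 25.7%.

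**Figure D2:**
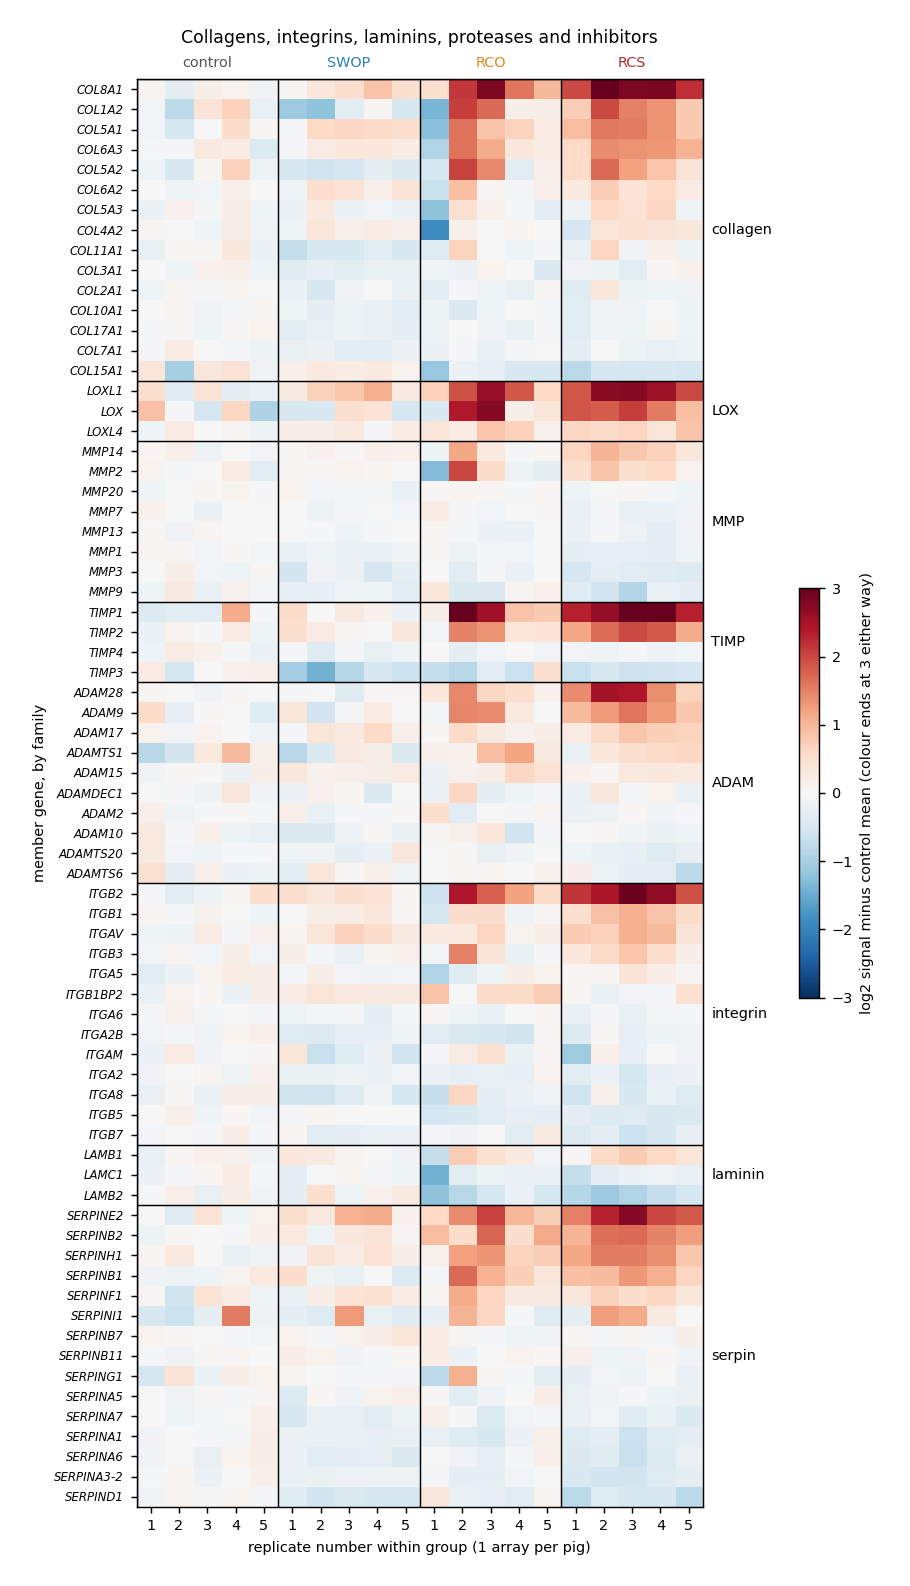
Each row is 1 member and each column 1 array, and the colour is the log2 signal minus the control mean of that gene, ending at 3 in either direction. The deepest red rows of the RCS columns are COL8A1, LOXL1, TIMP1, ITGB2 and SERPINE2, and RCO replicates 2 and 3 are red in these rows as well while replicate 1 is blue in several collagens and laminins.

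The calls split by signal. Of the 42 members above the 50th percentile of mean signal, 21 were higher and 4 lower in RCS, beside 34.6% and 20.7% of the 4915 genes with 1 symbol and 28.5% and 23.3% of all probe sets that bright. Of the 11 members from the 30th to the 50th percentile, 1 was higher (ADAM28) and 5 were lower (ITGB7, MMP9, SERPINA1, SERPINA6 and SERPIND1) in RCS. In that range 17.1% and 38.7% of the 1014 genes with 1 symbol and 14.3% and 37.4% of probe sets were called. In SWOP 2 members of that range were lower, COL17A1 and SERPIND1, beside 9.17% of genes with 1 symbol. Of the 18 members below the 30th percentile, log2 5.48, 0 were higher and 5 were lower in RCS, beside 8.85% and 39.4% of the 836 genes with 1 symbol and 7.29% and 30.3% of probe sets that dim. The dim lower members were MMP1, MMP3, ITGA2, SERPINA3-2 and SERPINA7, and a level this low on the array has no lower limit of detection in the table. Their falls of 0.24 to 0.45 (log2) are therefore given as signal differences on dim probe sets. Probe affinity differs between probe sets, so no gene's level is set against another gene's. Arrays of 2 groups often did not overlap. Against control this held for 32.6% of all probe sets in RCS, 5.84% in RCO and 12% in SWOP. It held for 23.9% in RCS and 6.54% in RCO against SWOP, and for 7.1% in RCS against RCO.

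Among the collagens, 5 of 15 were higher in RCS (COL8A1, COL1A2, COL5A1, COL6A3 and COL5A2), 1 was lower (COL15A1) and 9 did not pass. These shares, 33.3% higher and 6.67% lower, stand beside 28.8% and 25.7% of all genes with 1 symbol. COL8A1, the short-chain collagen VIII of vessel walls, had log2 signals of 7.18, 6.84, 7.29, 7.21 and 7.00 in control, in replicate order, and 7.16, 7.41, 7.60, 7.97 and 7.59 in SWOP. Its signals were 7.59, 9.23, 9.91, 8.72 and 8.07 in RCO and 9.09, 10.10, 9.91, 9.93 and 9.32 in RCS. All RCO and all RCS arrays lay above the highest control, and the SWOP arrays overlapped the controls. Against a control mean of 7.10 ± 0.18 (SD, n = 5), COL8A1 was 3.03-fold higher in RCO (log2 difference 1.60 ± 0.31 SE, limma adjusted p = 0.0034). In RCS it was 5.92-fold higher (2.57 ± 0.31 SE, adjusted p = 4.9e-06). Of its 3 other probe sets, 1 was called higher in RCS and 2 had a small difference of the other sign that did not pass.

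COL6A3, a chain of the beaded-filament collagen VI that surrounds cardiomyocytes, read 11.24, 11.24, 11.55, 11.50 and 10.88 in control and 11.24, 11.53, 11.60, 11.61 and 11.51 in SWOP. It read 10.37, 12.92, 12.40, 11.61 and 11.51 in RCO and 11.87, 12.69, 12.64, 12.59 and 12.33 in RCS. RCO spanned the widest range, from below every control to above every RCS array, while RCS lay wholly above control. The rise in RCS was 2.21-fold (1.14 ± 0.31 SE, limma adjusted p = 0.0052). The RCO difference of 0.48 ± 0.31 did not pass (adjusted p = 0.33).

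COL1A2, a chain of the main fibrillar collagen of scar, read 9.94, 9.23, 10.40, 10.71 and 9.79 in control and 8.93, 8.81, 9.69, 10.04 and 9.53 in SWOP. It read 8.65, 12.08, 11.71, 10.19 and 10.21 in RCO and 10.76, 11.99, 11.53, 11.35 and 10.80 in RCS. The lowest RCS array was just above the highest control, and RCO replicates 2 and 3 lay within or above the RCS range. COL1A2 rose 2.42-fold in RCS (1.27 ± 0.47 SE, adjusted p = 0.032), but this call was lost on leaving out 6 of the 10 arrays in turn, with an adjusted p of up to 0.0875 without control replicate 2. The fibril-regulating collagen V chains rose with it: COL5A1 by 1.24 ± 0.35 (SE, adjusted p = 0.0067) and COL5A2 by 0.94 ± 0.38 (SE, adjusted p = 0.046), the latter lost in 7 of 10 such fits. Of the 6 probe sets of COL5A1 the 3 brightest were called higher and the 3 dimmest lower in RCS, and their mean was higher by 0.40 (adjusted p = 0.0283). The other probe set of COL5A2 differed by -0.10 and did not pass.

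COL3A1, the second fibrillar collagen of scar, did not pass in any comparison: its control and RCS means were 7.61 ± 0.13 and 7.54 ± 0.19 (SD, n = 5), a difference of -0.08 ± 0.10 (SE, limma adjusted p = 0.56). This rests on 1 probe set, which read 7.43 and 7.73 on RCO replicates 2 and 3, beside 7.48 to 7.76 in control. COL4A2 of the basement membrane differed by 0.20 ± 0.28 in RCS (SE, adjusted p = 0.58), with RCO replicate 1 at 9.40 against 11.17 to 11.46 in control. COL15A1, a collagen of the outer basement membrane zone, read 11.78, 10.42, 11.75, 11.82 and 11.31 in control and 11.57, 11.72, 11.63, 11.71 and 11.53 in SWOP. It read 10.29, 11.23, 11.16, 10.97 and 10.95 in RCO and 10.61, 10.93, 10.89, 10.96 and 10.91 in RCS. Control replicate 2 lay below every RCS array, and the other controls lay above them all. COL15A1 fell by 0.56 ± 0.21 (SE, log2) in RCS (adjusted p = 0.035), a call lost in 5 of 10 fits with 1 array left out. Against SWOP, whose arrays all lay above those of RCO and RCS, it fell by 0.71 ± 0.21 in RCO (adjusted p = 0.037) and by 0.77 ± 0.21 in RCS (adjusted p = 0.0085). The RCS call was kept whichever array was left out, and the RCO call in 5 of 10 such fits (adjusted p = 0.0805 without SWOP replicate 2). In SWOP the collagen that passed was COL17A1, an epithelial transmembrane collagen, at 6.77, 6.85, 6.68, 6.86 and 6.91 in control and 6.47, 6.60, 6.65, 6.61 and 6.52 in SWOP. The groups did not overlap, and it fell by 0.24 ± 0.07 (SE, adjusted p = 0.045) and kept this call in 1 of 10 fits with 1 array left out.

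All 3 lysyl oxidases were higher in RCS, beside 28.8% of genes with 1 symbol, and 2 of them in RCO, beside 11.3%. LOXL1, which cross-links elastin as well as collagen, read 8.30, 7.44, 8.23, 7.54 and 7.63 in control and 8.13, 8.53, 8.66, 8.90 and 8.11 in SWOP. It read 8.52, 9.74, 10.43, 9.68 and 8.42 in RCO and 9.70, 10.53, 10.56, 10.38 and 9.82 in RCS. Every RCO array exceeded every control, by little on replicates 1 and 5, and RCS lay clear of control and SWOP. LOXL1 rose 2.89-fold in RCO (1.53 ± 0.31 SE, limma adjusted p = 0.0047). In RCS it rose 5.17-fold (2.37 ± 0.31 SE, adjusted p = 1.2e-05).

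LOX, the enzyme that gives the family its name, read 8.72, 7.78, 7.34, 8.47 and 6.93 in control and 9.74, 9.67, 9.92, 9.41 and 8.75 in RCS, where it rose 3.14-fold (1.65 ± 0.50 SE, adjusted p = 0.011). The RCO arrays ranged from 7.38 to 10.57 and did not pass. LOXL4, a further lysyl oxidase-like enzyme, read 6.65, 7.03, 6.77, 6.86 and 6.63 in control, while RCO gave 7.15, 7.03, 7.63, 7.47 and 6.92 and RCS gave 7.41, 7.37, 7.44, 7.16 and 7.64. RCS lay above control, and RCO overlapped it. LOXL4 rose by 0.45 ± 0.12 in RCO (SE, adjusted p = 0.024) and by 0.62 ± 0.12 in RCS (SE, adjusted p = 0.00056). The RCO call was kept in 6 of 10 fits with 1 array left out, with an adjusted p of 0.0801 without RCO replicate 3. Other probe sets of LOX and LOXL4 went the opposite way in RCS and passed: 1 of LOX at -0.31 and 2 of LOXL4 at -0.44 and -0.37. With the mean of all probe sets LOX was still higher in RCS, by 0.67 (adjusted p = 0.0182), whereas LOXL4 had a difference of -0.07 (adjusted p = 0.513), so the LOXL4 rise holds for its brightest probe set only. LOXL1 has a single probe set.

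Among the metalloproteinases 1 of 8 was higher in RCS, 3 were lower and 4 did not pass. The shares were 12.5% higher and 37.5% lower, beside 28.8% and 25.7% of genes with 1 symbol. MMP14, the membrane-anchored collagenase that also activates MMP2, read 8.11, 8.21, 7.91, 8.08 and 7.98 in control and 8.70, 9.07, 8.87, 8.74 and 8.40 in RCS. RCS lay wholly above control, and in RCO only replicates 2 and 3, at 9.22 and 8.36, exceeded the highest control. MMP14 rose 1.62-fold in RCS (0.70 ± 0.18 SE, limma adjusted p = 0.0033). MMP2, a gelatinase, had a difference of 0.50 ± 0.36 in RCS that did not pass (adjusted p = 0.26), and its RCO arrays ran from 9.03 to 12.33. MMP9, the other gelatinase and a product of neutrophils and macrophages, read 5.92, 6.32, 5.81, 6.18 and 5.97 in control and 5.67, 5.46, 5.15, 5.84 and 5.75 in RCS, and fell by 0.47 ± 0.15 (SE, adjusted p = 0.016). Control and RCS overlapped, and the call was lost without RCS replicate 3 (adjusted p = 0.0577).

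The stromelysin MMP3 read 4.81, 5.01, 4.75, 4.70 and 4.86 in control, 4.28, 4.72, 4.64, 4.32 and 4.55 in SWOP and 4.31, 4.56, 4.50, 4.47 and 4.42 in RCS, all dim. SWOP overlapped control through replicate 2, and RCS lay below it. MMP3 fell by 0.32 ± 0.09 in SWOP (SE, adjusted p = 0.042) and by 0.37 ± 0.09 in RCS (SE, adjusted p = 0.0031). The SWOP call was kept in 2 of 10 fits with 1 array left out, and the RCS call in 10. None of its 3 other probe sets, dimmer still, passed against control. The interstitial collagenase MMP1 fell by 0.24 ± 0.06 in RCS (SE, adjusted p = 0.0036) at a similarly dim signal. In RCO 0 of the 8 metalloproteinases passed limma, and 0 had an unadjusted p below 0.05.

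The inhibitors of these enzymes moved in both directions. TIMP1, a secreted inhibitor that activated fibroblasts and macrophages make, read 8.75, 8.83, 8.84, 10.28 and 9.12 in control and 9.71, 9.18, 9.44, 9.30 and 8.98 in SWOP. It read 9.33, 13.25, 11.69, 10.02 and 9.94 in RCO and 11.50, 11.79, 12.49, 12.28 and 11.50 in RCS. Control replicate 4 stood above the other controls, RCO replicate 2 gave the highest reading of all, and RCS lay wholly above control. TIMP1 rose 6.72-fold in RCS (2.75 ± 0.51 SE, limma adjusted p = 0.00031), the largest fold among the 71 members. The RCO rise of 1.68 ± 0.51 (SE, adjusted p = 0.041) was kept in 4 of 10 fits with 1 array left out and reached an adjusted p of 0.116 without RCO replicate 3.

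TIMP2, which inhibits MMP2 and also takes part in its activation by MMP14, read 10.31, 10.60, 10.45, 10.73 and 10.35 in control and 10.97, 10.73, 10.52, 10.49 and 10.81 in SWOP. It read 10.41, 11.97, 11.84, 10.84 and 10.90 in RCO and 11.65, 12.16, 12.46, 12.33 and 11.59 in RCS. RCS was above every control and SWOP array, and RCO replicates 2 and 3 fell within the RCS range. TIMP2 rose 2.93-fold in RCS (1.55 ± 0.24 SE, adjusted p = 5.5e-05) and was 0.70 higher in RCO without passing (adjusted p = 0.063). Its second probe set, also bright, differed by 0.40 in RCS (adjusted p = 0.12) and -0.03 in RCO and passed in neither, and the mean of both was higher by 0.97 in RCS (adjusted p = 0.00112).

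TIMP3, the matrix-bound inhibitor that also blocks ADAM17, went the other way and read 9.17, 8.39, 8.91, 9.04 and 9.06 in control and 7.86, 7.50, 8.06, 8.43 and 8.26 in SWOP. It read 8.22, 8.08, 8.60, 8.27 and 9.39 in RCO and 8.25, 8.43, 8.30, 8.32 and 8.42 in RCS. Control replicate 2, at 8.39, overlapped the SWOP and RCS arrays, and the other 4 controls lay above both groups. TIMP3 fell by 0.89 ± 0.21 (SE) in SWOP (adjusted p = 0.018) and by 0.57 ± 0.21 in RCS (adjusted p = 0.029). The RCS call was kept in 4 of 10 fits with 1 array left out and the SWOP call in 8. Its second probe set was also called lower in SWOP. Among the 71 members, the SWOP fall of 1.86-fold was the only SWOP difference from control that passed and reached 1.5-fold. That is 1.41% of members, beside 0.976% of genes with 1 symbol higher and 0.31% lower at this limit. TIMP4, dim at a control mean of 5.04 ± 0.17 (SD, n = 5), did not pass in any comparison.

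**Figure D3:**
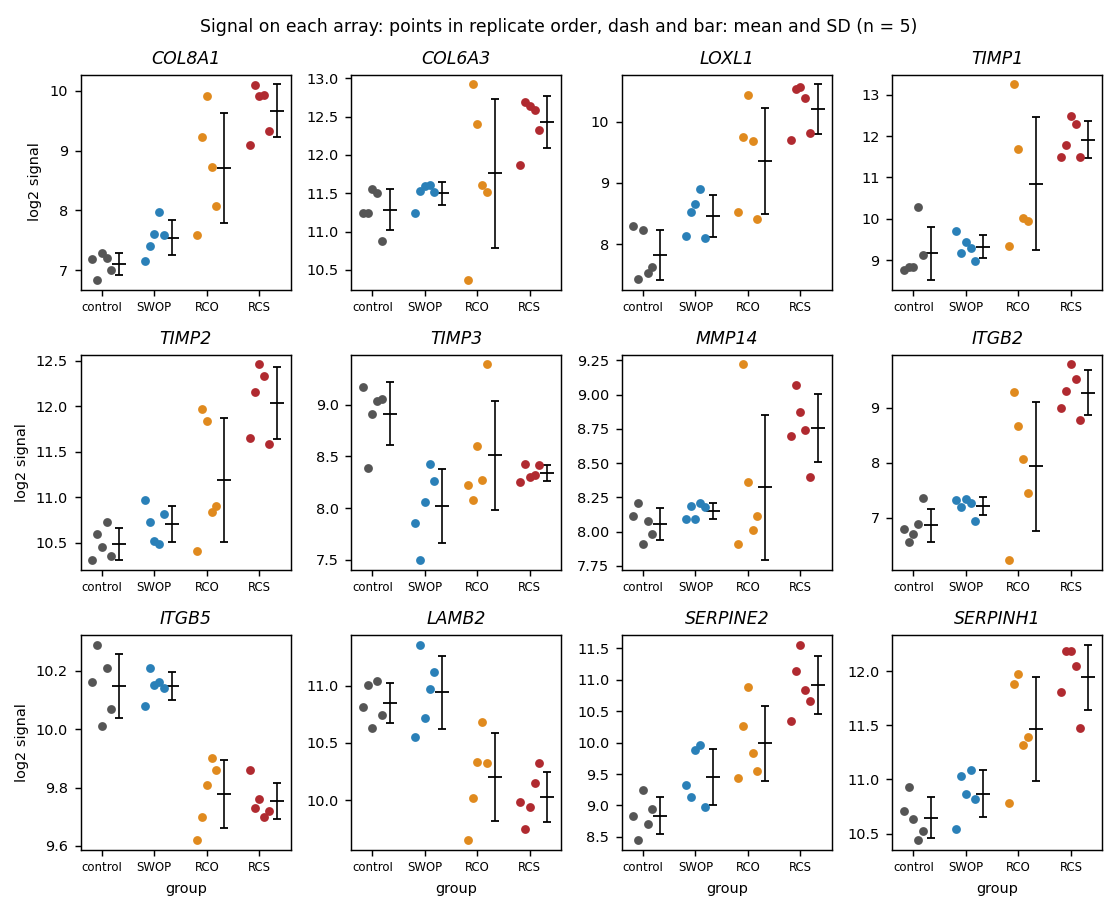
Points are the log2 signals of 12 members on each array, in replicate order within a group, and the dash and bar give the mean and SD (n = 5). In RCS the arrays of COL8A1, COL6A3, LOXL1, TIMP1, TIMP2, MMP14, ITGB2, SERPINE2 and SERPINH1 lie above every control and those of ITGB5 and LAMB2 below every control, while RCO is spread widely except in ITGB5. Of all probe sets 32.6% had no overlap between RCS and control.

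Of the 10 ADAM and ADAMTS genes 3 were higher in RCS, 0 were lower and 7 did not pass, and 4 had an unadjusted p below 0.05. That is 30% higher and 0% lower, beside 28.8% and 25.7% of genes with 1 symbol. ADAM28, a protease known from lymphocytes and other leukocytes, was dim in control at 5.00, 4.98, 4.86, 5.00 and 4.97 and read 6.37, 7.45, 7.38, 6.36 and 5.62 in RCS. RCS replicates 2 and 3 stood highest and replicate 5 lowest, all above control, and the RCO arrays, at 5.28, 6.41, 5.59, 5.47 and 5.09, were above control as well. ADAM28 rose 3.19-fold in RCS (1.67 ± 0.27 SE, limma adjusted p = 8.5e-05), while its RCO difference of 0.61 ± 0.27 did not pass. ADAM17, the sheddase known for releasing tumour necrosis factor, read 6.82, 6.63, 6.82, 6.71 and 6.58 in control and 6.95, 7.29, 7.54, 7.42 and 7.39 in RCS, without overlap, and rose by 0.61 ± 0.12 (SE, adjusted p = 0.00057). Of its other probe sets 1 was called higher in RCS, at 0.56, and those at 0.13 and -0.24 did not pass. The mean of all its probe sets was higher by 0.26 (adjusted p = 0.00536). The sheddase ADAM9 rose by 1.18 ± 0.28 (SE, adjusted p = 0.0019). ADAMTS1, a proteoglycan-cleaving enzyme, ranged from 9.25 to 11.04 in control alone and did not pass in any group.

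Among the 13 genes of the integrin family 3 were higher in RCS, 3 were lower and 7 did not pass. Each direction held 23.1% of them, beside 28.8% higher and 25.7% lower of genes with 1 symbol. ITGB2, the β2 subunit carried by leukocytes, read 6.79, 6.55, 6.71, 6.89 and 7.36 in control and 7.33, 7.19, 7.34, 7.27 and 6.93 in SWOP. It read 6.23, 9.28, 8.66, 8.06 and 7.44 in RCO and 9.0, 9.31, 9.79, 9.52 and 8.77 in RCS. RCS lay more than 1 log2 unit above the highest control, and RCO ran from below the lowest control up to the RCS range. ITGB2 rose 5.34-fold in RCS (2.42 ± 0.37 SE, limma adjusted p = 4.7e-05). ITGAM, an α subunit that pairs with ITGB2 on myeloid cells, was dim and had a difference of -0.26 ± 0.20 that did not pass (adjusted p = 0.31). Its other probe set, dimmer still, was called lower in RCS at -0.32 (adjusted p = 0.0126).

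ITGB1, the β1 subunit found on nearly all cell types and the main one of cardiomyocytes, had means of 11.68 ± 0.10 in control and 12.45 ± 0.24 in RCS (SD, n = 5). It rose 1.7-fold (0.77 ± 0.16 SE, adjusted p = 0.000704), with no overlap between the groups. ITGAV, the subunit that binds vitronectin and latent TGF-β, read 9.96, 9.94, 10.32, 10.02 and 10.21 in control and 10.84, 10.77, 11.15, 11.04 and 10.47 in RCS. The groups did not overlap, and ITGAV rose 1.7-fold (0.76 ± 0.13 SE, adjusted p = 0.00018). ITGB5, a partner of ITGAV, went the opposite way and read 10.16, 10.29, 10.01, 10.21 and 10.07 in control and 10.08, 10.21, 10.15, 10.16 and 10.14 in SWOP.

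In RCO ITGB5 read 9.62, 9.70, 9.81, 9.90 and 9.86 and in RCS 9.86, 9.73, 9.76, 9.70 and 9.72. All RCO and RCS arrays lay below all control and SWOP arrays, and RCO replicates 2 and 3 did not stand apart. It fell by 0.37 ± 0.07 in RCO (SE, adjusted p = 0.00296) and by 0.39 ± 0.07 in RCS (SE, adjusted p = 0.00018), small in size at 1.31-fold, and both calls were kept whichever array was left out. ITGB3, another partner of ITGAV, differed by 0.48 ± 0.22 in RCS and did not pass (adjusted p = 0.085).

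ITGB1BP2, the melusin gene, was higher in RCO and not in RCS. It read 10.77, 11.06, 11.00, 10.78 and 11.15 in control and 11.81, 10.96, 11.49, 11.51 and 11.68 in RCO. RCS arrays, at 11.00, 10.75, 10.88, 10.90 and 11.42, overlapped control, and within RCO replicate 2 was the lowest. It rose by 0.54 ± 0.14 in RCO (SE, adjusted p = 0.016), kept whichever array was left out, and its second probe set was also called. The RCS difference from control was 0.04 ± 0.14, and between the protocols RCS was lower than RCO by -0.50 (SE 0.14, adjusted p = 0.018), kept in 8 of 10 fits with 1 array left out. ITGA2B, the platelet integrin subunit, read 7.26, 7.30, 7.23, 7.45 and 7.49 in control and 7.04, 6.91, 6.88, 6.80 and 7.39 in RCO. RCO replicate 5 lay within the control range and the other RCO arrays below it. ITGA2B fell by 0.34 ± 0.10 in RCO (SE, adjusted p = 0.042), kept in 3 of 10 fits with 1 array left out. The lymphocyte subunit ITGB7 read 5.79, 5.85, 5.84, 6.05 and 5.82 in control and 5.45, 5.60, 5.23, 5.38 and 5.63 in RCS, without overlap. It fell by 0.41 ± 0.11 in RCS (SE, adjusted p = 0.0037), and its other probe set was called lower as well.

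Of the laminin chains LAMB2 was lower in RCO and RCS, and LAMB1 and LAMC1 did not pass. LAMB2, the β2 chain of mature muscle and vessel basement membrane, read 10.81, 11.01, 10.63, 11.04 and 10.74 in control and 10.55, 11.36, 10.72, 10.97 and 11.12 in SWOP. It read 9.65, 10.02, 10.33, 10.68 and 10.32 in RCO and 9.98, 9.75, 9.94, 10.15 and 10.32 in RCS. Every RCS array lay below every control, and RCO overlapped control through replicate 4 alone. LAMB2 fell by 0.65 ± 0.17 in RCO (SE, limma adjusted p = 0.019) and by 0.82 ± 0.17 in RCS (SE, adjusted p = 0.00073). The RCO call was lost without control replicate 2 (adjusted p = 0.0529) and without RCO replicates 2 and 3. LAMB1, the β1 chain, differed by 0.47 ± 0.19 in RCS (SE, adjusted p = 0.051), and LAMC1, the γ1 chain that pairs with either, by -0.30 ± 0.18 (SE, adjusted p = 0.18).

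The serpins split into 5 higher, 5 lower and 5 not passing in RCS. Each direction held 33.3% of them, beside 28.8% higher and 25.7% lower of genes with 1 symbol. Of the higher ones, 4 were higher in RCO as well, against the same controls, and the like overlap over all genes was not counted. SERPINE2, protease nexin-1, which inhibits thrombin and plasminogen activators, read 8.84, 8.45, 9.25, 8.71 and 8.95 in control and 9.32, 9.14, 9.89, 9.96 and 8.98 in SWOP. It read 9.43, 10.26, 10.89, 9.83 and 9.55 in RCO and 10.35, 11.14, 11.56, 10.84 and 10.67 in RCS. RCO and RCS lay wholly above control, and SWOP overlapped it. SERPINE2 rose 2.22-fold in RCO (1.15 ± 0.27 SE, limma adjusted p = 0.01) and 4.21-fold in RCS (2.07 ± 0.27 SE, adjusted p = 9.2e-06).

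SERPINH1, the collagen chaperone HSP47, which has no protease target, read 10.71, 10.93, 10.63, 10.44 and 10.52 in control and 10.54, 11.03, 10.87, 11.09 and 10.82 in SWOP. It read 10.78, 11.88, 11.97, 11.32 and 11.39 in RCO and 11.81, 12.19, 12.19, 12.05 and 11.48 in RCS. RCO replicate 1 fell within the control range while the other RCO arrays and all RCS arrays lay above it. SERPINH1 rose 1.77-fold in RCO (0.82 ± 0.19 SE, adjusted p = 0.00896) and 2.46-fold in RCS (1.30 ± 0.19 SE, adjusted p = 2.7e-05).

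SERPINB2, the plasminogen activator inhibitor of monocytes, read 11.50, 11.67, 11.63, 11.62 and 11.80 in control and 11.94, 11.51, 11.97, 12.02 and 11.73 in SWOP. It read 12.58, 12.19, 13.40, 12.16 and 12.79 in RCO and 12.67, 13.29, 13.34, 13.14 and 12.89 in RCS. RCO and RCS lay wholly above both other groups. It rose 1.97-fold in RCO (0.98 ± 0.18 SE, adjusted p = 0.00301) and 2.68-fold in RCS (1.42 ± 0.18 SE, adjusted p = 1e-05). Its identity rests on 1 probe set of the probe table. SERPINB1, an inhibitor of neutrophil elastase, read 7.48, 7.44, 7.46, 7.69 and 7.89 in control, while RCO gave 7.56, 9.30, 8.64, 8.30 and 7.94 and RCS gave 8.50, 8.54, 8.90, 8.69 and 8.24. RCS lay above control, and RCO replicate 1 lay within it. SERPINB1 rose by 0.76 ± 0.24 in RCO (SE, adjusted p = 0.046) and by 0.98 ± 0.24 in RCS (SE, adjusted p = 0.0024); the RCO call was kept in 3 of 10 fits with 1 array left out. Its 2 other probe sets had small differences below 0 in RCS that did not pass. SERPINF1, the anti-angiogenic factor PEDF, rose by 0.50 ± 0.19 in RCS (SE, adjusted p = 0.036), kept in 5 of 10.

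The lower serpins are plasma proteins known from the liver. SERPIND1, heparin cofactor II, read 5.80, 5.98, 5.87, 5.99 and 5.86 in control and 5.54, 5.33, 5.46, 5.42 and 5.43 in SWOP. It read 6.25, 5.70, 5.66, 5.59 and 5.98 in RCO and 5.10, 5.53, 5.41, 5.39 and 5.10 in RCS. SWOP and RCS lay wholly below control, and RCO spanned it. SERPIND1 fell by 0.46 ± 0.11 in SWOP (SE, adjusted p = 0.021) and by 0.59 ± 0.11 in RCS (SE, adjusted p = 0.00032). The SWOP call was kept in 6 of 10 fits with 1 array left out, with an adjusted p of up to 0.0581 without control replicate 4, and the RCS call in 10. Its other probe set, dim, was called lower in RCS and differed by -0.16 in SWOP without passing (adjusted p = 0.219). SERPINA6, the corticosteroid-binding globulin, read 5.79, 5.91, 5.66, 5.99 and 6.09 in control and 5.46, 5.53, 5.21, 5.47 and 5.69 in RCS. Only RCS replicate 5 reached the control range, and SERPINA6 fell by 0.42 ± 0.10 (SE, adjusted p = 0.0018). The other 3, SERPINA1, SERPINA7 and SERPINA3-2, fell by 0.26 to 0.45 in RCS from control means between 4.56 and 6.15. The SERPINA7 call was kept in 5 of 10 fits with 1 array left out. SERPING1, the C1 inhibitor, did not pass in any comparison.

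**Figure D4:**
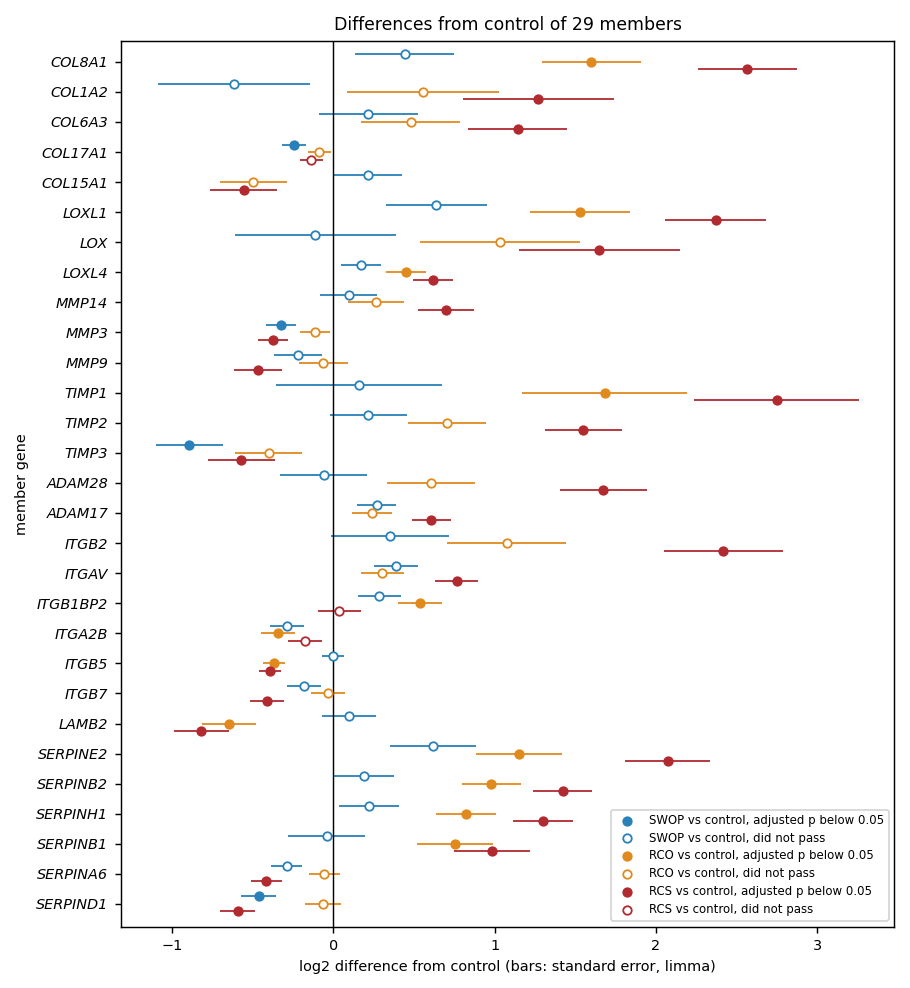
Points are the log2 differences from control of 29 named members in SWOP, RCO and RCS with their limma standard errors, filled where the adjusted p was below 0.05. TIMP1, COL8A1, ITGB2, LOXL1 and SERPINE2 lie farthest to the right in RCS, between 2.07 and 2.75, and TIMP3 in SWOP farthest to the left at -0.89.

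Between the protocols, RCS exceeded SWOP in 21 members and was below it in 4, beside 20.3% and 17.7% of genes with 1 symbol (38% in either direction, where 35.2% of members passed) and 13.8% and 15.3% of all probe sets (29.1%). The 4 lower members were COL15A1, ITGB5, LAMB2 and SERPINA3-2. COL8A1 was 4.36-fold higher in RCS than in SWOP (2.12 ± 0.31 SE, limma adjusted p = 6.6e-05) and TIMP1 6.02-fold (2.59 ± 0.51 SE, adjusted p = 0.00086). COL11A1, a minor fibrillar chain, was higher by 0.54 ± 0.17 (SE, adjusted p = 0.024) although its RCS difference from control was 0.06, since its SWOP arrays were all below control without passing. The COL11A1 call was kept in 7 of 10 fits with 1 array left out.

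RCO exceeded SWOP in 5 members and was below it in 3, beside 5.54% and 6.4% of genes with 1 symbol (11.9% in either direction, where 11.3% of members passed) and 3.75% and 6.31% of all probe sets (10.1%). The higher members were COL8A1, SERPINB1, SERPINB2, SERPIND1 and SERPINH1, and the lower ones COL15A1, ITGB5 and LAMB2. Without RCO replicates 2 and 3 the count was 6 (COL15A1, ITGB1BP2, ITGB5, LAMB2, SERPINB2 and SERPIND1).

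RCS exceeded RCO in 8 members and was below it in 6, beside 11.7% and 9.9% of genes with 1 symbol (21.6% in either direction, where 19.7% of members passed) and 8.75% and 10.3% of all probe sets (19.1%). The higher members were COL8A1, TIMP2, ITGB1, ITGB2, ITGAV, ADAM17, ADAM28 and SERPINE2, and in each of them RCO replicate 2 or 3 lay within or above the RCS range. ITGB2 was higher by 1.34 ± 0.37 (SE, limma adjusted p = 0.018) and ADAM28 by 1.07 ± 0.27 (SE, adjusted p = 0.013). SERPIND1 was lower by -0.53 (SE 0.11, adjusted p = 0.0048), with every RCS array below every RCO array. The ADAM28 and SERPIND1 calls were kept whichever array was left out, and the ITGB2 call was lost in 2 of 10 fits, with an adjusted p of up to 0.0573 without RCS replicate 3. The count ran from 0 in a limma fit of these groups alone, where 19 members had an unadjusted p below 0.05, to 36 without RCO replicates 2 and 3. The TIMP1 difference between RCS and RCO, 1.07 ± 0.51 (SE), did not pass (adjusted p = 0.14).

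The members varied more within RCO than within the other groups. Their median SD was 0.36 (log2) in RCO, beside 0.16 in control, 0.15 in SWOP and 0.22 in RCS, and over all probe sets it was 0.22 in RCO and 0.13 to 0.15 in the others. In RCO 7 members had an SD above 1 (COL1A2, COL5A1, COL5A2, LOX, MMP2, TIMP1 and ITGB2), in the other groups 0. Of the 14 members lower in RCS, 4 (28.6%) had RCO replicates 2 and 3 both below the other RCO arrays, beside 46.8% of all probe sets and 49.4% of genes with 1 symbol that were lower in RCS.

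Genes that act with the members were counted from lists by function, with the same test and the backgrounds given above. Of the 7 measured genes of collagen biosynthesis, 6 were higher and 0 lower in RCS, and 4 were higher in RCO. FKBP10, a chaperone of procollagen, rose by 1.93 ± 0.30 in RCS (SE, limma adjusted p = 5e-05), and BMP1, the procollagen C-proteinase, rose by 0.69 ± 0.17 in SWOP (SE, adjusted p = 0.021) and 1.14 ± 0.17 in RCS (SE, adjusted p = 2.9e-05). Matrix glycoproteins were higher in 8 and lower in 4 of 15 in RCS, and higher in 3 in RCO. The wound-matrix protein tenascin-C, TNC, rose by 3.18 ± 0.64 in RCO (SE, adjusted p = 0.0044) and 4.42 ± 0.64 in RCS (SE, adjusted p = 3.1e-05). Fibronectin, FN1, rose by 2.96 ± 0.51 in RCS (SE, adjusted p = 0.00016), and vitronectin, VTN, fell by 0.88 ± 0.18 (SE, adjusted p = 0.00056).

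Proteoglycans were higher in 5 and lower in 2 of 10 in RCS and higher in 4 in RCO. Plasminogen activators, cathepsins and their inhibitors were higher in 10 and lower in 2 of 18 in RCS, and higher in 7 and lower in 1 in RCO. PLAU, the urokinase that SERPINE2 and SERPINB2 inhibit, rose by 1.15 ± 0.29 in RCO (SE, adjusted p = 0.017) and 1.74 ± 0.29 in RCS (SE, adjusted p = 0.00012). The integrin adhesome was higher in 8 and lower in 2 of 13 in RCS, with the actin cross-linker ACTN1 at 2.07 ± 0.30 (SE, adjusted p = 3.1e-05) and dystrophin, DMD, falling by 0.74 ± 0.10 (SE, adjusted p = 1.3e-05). TGF-β signalling genes were higher in 5 and lower in 0 of 11 in RCS, among them TGFBR1 at 1.32 ± 0.14 (SE, adjusted p = 2.3e-06). In SWOP 1 gene was higher in collagen biosynthesis (BMP1) and 1 in the adhesome (DDR1), 1 proteoglycan was lower (SDC1), and 0 genes of the other 3 lists passed limma, where 1 matrix glycoprotein, 2 protease genes and 3 TGF-β genes had an unadjusted p below 0.05.

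Markers of some cell types of the heart also differed between the groups. In bulk tissue, fewer cells of a type and less RNA per cell cannot be told apart. The marker counts stand beside 28.8% higher and 25.7% lower of all genes with 1 symbol in RCS. In RCO these shares were 11.3% and 4.26%, and in SWOP 4.66% and 3.5%. The summed linear signal of 9 macrophage and monocyte markers, divided by 1000 as for every sum here, was 2.32 to 4.53 on control arrays, 2.55 to 4.45 on SWOP, 4.28 to 15.5 on RCO and 7.52 to 13.8 on RCS, and 6 of the 9 passed as higher in RCS. On RCO replicates 2 and 3 it was 15.5 and 9.11. The sum of 9 fibroblast markers was 16.0 to 25.7 in control and 25.5 to 35.9 in RCS, with 4 higher and 1 lower, and the sum of 5 smooth muscle markers was 5.44 to 7.80 and 10.9 to 16.4, with 3 higher and 2 lower.

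Cardiomyocyte markers summed to 193 to 201 in control and 137 to 172 in RCS, where 7 of 9 passed as lower. All 9 lay above the 30th percentile of signal. The sum of 5 adipocyte markers ran from 7.82 to 11.4 on control arrays and from 8.06 to 9.79 on SWOP arrays. On RCO arrays it ran from 6.18 to 8.30, on RCS arrays from 4.71 to 8.31, and ADIPOQ, the defining marker, was dim. Of these 5 markers 3 were lower in RCS, 2 in RCO and 1 in SWOP, with 0 higher, and their median difference in RCS was -1.06 (log2). Of the 8 endothelial markers 0 passed in RCS by limma and 2 had an unadjusted p below 0.05. Of the 4 neutrophil markers 3 (S100A8, S100A9 and S100A12) and 3 of the 7 lymphocyte markers (CD3G, CD4 and CD79B) lay below the 30th percentile of signal. In RCS 1 neutrophil and 2 lymphocyte markers were lower than in control and 0 higher. Against RCO, 5 of the 7 lymphocyte markers were lower in RCS and 0 higher, beside 9.9% and 11.7% of genes with 1 symbol. The part of these cell-type markers in the differences of ITGB2, TIMP1, the collagens and the other members was not tested.

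**Figure D5:**
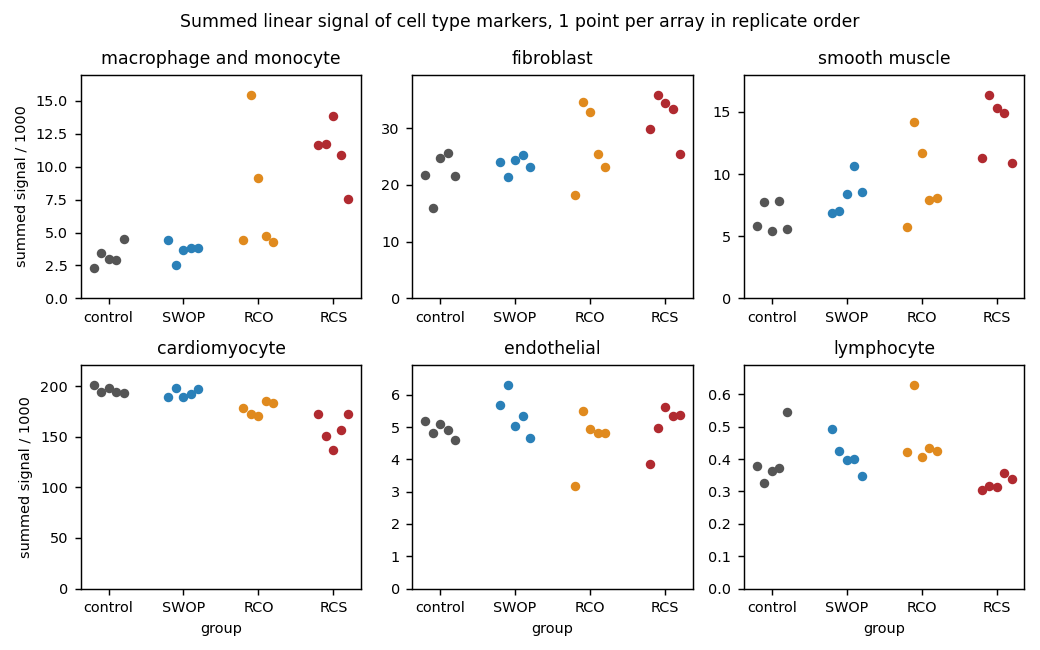
Points are the summed linear signals, divided by 1000, of the measured markers of 6 cell types on each array, in replicate order within a group. The macrophage and smooth muscle sums lie higher in RCS than in every control, the cardiomyocyte sums lie lower, and RCO replicates 2 and 3 lie above the other RCO arrays in the macrophage, fibroblast and smooth muscle panels.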

How the data were processed

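Total RNA from the heart of 20 pigs was extracted with Trizol and hybridized after biotin labelling to a 1-colour Affymetrix array, per the labels' protocols. The deposited log2 values of 24123 probe sets were made by the authors, and RMA and MAS5 are named without versions or roles per the submitters' processing notes. The log base is not stated, and the values' range fits base 2.

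After 124 control spots were left out, 23999 probe sets were tested with lmFit and eBayes of limma 3.58.1 (R 4.3.3), fitting 4 group means to 20 arrays. Calls used a Benjamini-Hochberg adjusted p below 0.05 over all probe sets within each of 6 comparisons, and a gene's difference is on the log2 scale with its standard error. The number of arrays limits the precision, and each p-value sets a difference of group means against the spread between pigs within groups. All arrays enter each fit, so the groups share 1 estimate of spread, although RCO varied more than the others. The script was tested on simulated data. Tables were made with Python 3.11.15 and pandas 2.3.3.

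Of the tested probe sets 10069 had 1 symbol, 198 several and 13732 none, and all 71 members matched a RefSeq gene identifier of the same symbol. Of the members 29 had more than 1 probe set. Members and gene lists were chosen with earlier results of these data known. The members given by array were the called ones whose higher group mean exceeded the 30th percentile of signal: up to 8 of largest difference in each direction in each comparison with control, up to 4 between protocols, and the 2 of smallest p per family in RCS. Other genes named were chosen after their values were seen. Settings varied were quantile normalization, median centring, a filter on dim probe sets, an intensity trend, array weights, a replicate block, a 1.5-fold limit, pairwise fits, the mean of all probe sets and each array left out. The fits without RCO replicates 2 and 3 or without the 2 arrays of highest spike-in signal were added after seeing the data.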

Additional observations from a re-analysis of the deposited data

Results flagged for a closer look

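Among 116 groups of 5 arrays examined for the 29 members given by array, 6 held an array far from the others of its group, by Dixon's ratio of gap to range. Chance gives about 1 in 20 such groups. TIMP1 read 10.28 (log2) on control replicate 4, where the nearest other control was 9.12, and without that array the RCS difference still passed. ITGB7 read 6.05 on the same control array, against 5.85 for the nearest. ADAM28 read 4.86 on control replicate 3 and 4.60 on SWOP replicate 3, where the nearest readings were 4.97 and 4.93, all dim. COL15A1 read 10.61 on RCS replicate 1, with 10.89 the nearest. COL6A3 read 11.24 on SWOP replicate 1, 1 of the 2 arrays of high spike-in signal, with 11.51 the nearest.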

How the results depend on the processing

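Counts of members were within 1.5 times the values given in 86 of 123 recomputations over 6 comparisons; the cause of the others was not tested. For SWOP against control (4 members) the count was 2 after quantile normalization, after median centring and without dim probe sets, 19 with array weights, 9 with the replicate block, 16 in a fit of only these groups and 1 at a limit of 1.5-fold. For RCO against control (12) it was 3 in a fit of only these groups and 5 without RCO replicates 2 and 3. For RCS against control (36) it was 23 at a limit of 1.5-fold. For RCO against SWOP (8) it was 13 with array weights, 2 in a fit of only these groups and 13 on leaving out the 2 arrays with high spike-in signal. For RCS against RCO (14) it was 0 in a fit of only these groups, 6 at a limit of 1.5-fold, 36 without RCO replicates 2 and 3, and 8 on leaving out the 2 arrays with high spike-in signal.

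With 1 array left out in turn, the count ran from 0 to 5 in SWOP against control, 8 to 17 in RCO against control, 29 to 36 in RCS against control, 3 to 14 in RCO against SWOP, 21 to 25 in RCS against SWOP and 4 to 27 in RCS against RCO. SWOP against control fell to 0 without control replicate 4, where limma gave 14 members an unadjusted p below 0.05, to 1 without control replicate 2 or SWOP replicate 2 or 4, and to 2 without control replicate 1 or 5 or SWOP replicate 3 or 5. RCO against SWOP was 14 without RCO replicate 1, 5 without RCO replicate 3, 3 without SWOP replicate 2 or 5 and 4 without SWOP replicate 3 or 4. RCS against RCO was 27 without RCO replicate 2, 9 without RCO replicate 1 or 4, 5 without RCO replicate 5, 4 without RCS replicate 3 and 9 without RCS replicate 4. Calls kept whichever array was left out numbered 29 of 36 in RCS, 7 of 12 in RCO and 0 of 4 in SWOP against control.

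Of 1649 recomputations of 81 called differences of the members given by array, 1407 kept direction and call, 241 lost the call, and 1 reversed: LOXL4 in RCS, at -0.0673 with the mean of all its probe sets. Same-numbered arrays of different groups deviated together in 10 of 30 pairs (correlation above 0.1), in no comparison in all 5 pairs, so the numbers were not taken to pair the samples. RCS and RCO came nearest, with 4 of 5 pairs (median 0.369, lowest 0.0775) and 6 of 10 arrays correlating best with their own number, and RCO and SWOP had 3 of 5. With the replicate block the counts were 9, 14 and 39 for SWOP, RCO and RCS against control, 11 for RCO and 27 for RCS against SWOP, and 19 for RCS against RCO. No pseudocount was varied, since log2 values need none. Signal over background limits the 18 dim members, whose differences are small on the array.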
